A study of Mus musculus with 25 samples.

Results

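A set of 9 genes whose products act at synapses or carry neurotrophin signals were described in the brain cortex of 25 male mice, chosen by gene symbol from the 21720 genes of the deposited count table. They were Arc, Homer1, Inhba, Bdnf, Nptx2, Vgf, Ntrk2, Ntrk3 and Ptgs2, and all 9 were among the 16515 genes with enough counts to be tested. The mice fell into 5 groups of 5 animals, drawn at random from larger groups, with 1 library per mouse. A total of 4 groups were transgenic (strain B6C3, carrying APPswe and a further allele) and received for 3 months, once a day into the abdominal cavity, (-)-Vestitol with Salviolone at 2.5 mg/kg each (the combination), (-)-Vestitol alone at 5 mg/kg (vestitol), Salviolone alone at 5 mg/kg (salviolone) or vehicle (the model control). The last group were wild type C57BL/6J mice on vehicle, and all mice were 6 months old. In this amyloid model the mouse Prnp promoter drives the APP transgene, which joins mouse and human sequence and carries the Swedish mutation. Strain and genotype differ together between the transgenic and the wild type mice, so their effects cannot be told apart. The combination gave each compound at a lower dose than the single treatments did, so the mixture and the dose cannot be told apart either. The Donepezil group was not analysed here.

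Neuronal firing raises calcium in the cell, which switches on transcription factors of the Fos, Egr and Nr4a families within minutes, and also effector genes that act at the synapse. Arc drives the removal of AMPA receptors from the postsynaptic membrane, the short form of Homer1 uncouples metabotropic glutamate receptors from their scaffold, and Bdnf, acting on the receptor TrkB, strengthens synapses. Such genes are widely used as readouts of recent activity in cortical neurons. A bulk count cannot tell the short from the long Homer1 form, nor full-length from truncated TrkB and TrkC, since all transcripts of a gene were summed. In bulk tissue, fewer cells of a type and less RNA per cell cannot be told apart.

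RefSeq promoter entries (build GRCm38.p6) matched 5 of the 9 genes by symbol, with 12 windows in all, 7 of them for the alternative starts of Bdnf and 2 for Homer1. Arc, Nptx2, Vgf and Ntrk3 had none. The 250 bases upstream of each start were searched on both strands for the cAMP response element half-site TGACG and its full form TGACGTCA, the AP-1 motif TGANTCA, the EGR motif GCGNGGGCG, the E-box CACGTG, the CArG box and the TATA box TATAAA. The full cAMP response element holds TGACG on both strands. The 4 windows with a match are printed because Homer1, Inhba and Bdnf changed together in 1 of the comparisons below, and capitals mark the matches. They are all on the plus strand, at chr13:93303507-93303756 (Homer1), chr13:16011601-16011850 (Inhba), chr2:109692186-109692435 (Bdnf, first window) and chr2:109676782-109677031 (Bdnf, second window).
Homer1: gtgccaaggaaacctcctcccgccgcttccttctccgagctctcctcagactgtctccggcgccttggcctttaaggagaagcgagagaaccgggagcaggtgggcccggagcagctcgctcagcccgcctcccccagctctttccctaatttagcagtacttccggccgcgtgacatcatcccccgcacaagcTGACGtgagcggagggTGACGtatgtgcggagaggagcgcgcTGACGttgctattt
Inhba: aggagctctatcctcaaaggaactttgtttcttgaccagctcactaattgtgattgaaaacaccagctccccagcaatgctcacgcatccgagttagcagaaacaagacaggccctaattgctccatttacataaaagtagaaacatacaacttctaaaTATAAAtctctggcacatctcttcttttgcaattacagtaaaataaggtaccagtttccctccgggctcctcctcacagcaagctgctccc
Bdnf, first window: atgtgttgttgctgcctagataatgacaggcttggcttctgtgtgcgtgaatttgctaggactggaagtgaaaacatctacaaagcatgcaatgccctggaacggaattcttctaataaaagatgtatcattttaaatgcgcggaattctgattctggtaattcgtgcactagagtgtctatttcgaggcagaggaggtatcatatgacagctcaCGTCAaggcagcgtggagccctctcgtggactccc
Bdnf, second window: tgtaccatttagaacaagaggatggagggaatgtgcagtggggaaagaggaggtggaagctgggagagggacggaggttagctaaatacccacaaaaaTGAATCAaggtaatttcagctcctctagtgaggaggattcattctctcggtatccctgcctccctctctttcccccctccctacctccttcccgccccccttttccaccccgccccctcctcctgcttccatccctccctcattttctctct

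The Homer1 window holds TGACG at 3 places, at -56 to -52, -40 to -36 and -14 to -10 from the start. The first Bdnf window holds the same half-site on the other strand at -35 to -31, the second an AP-1 match at -152 to -146, and the Inhba window a TATA box at -91 to -86. Among 32851 mouse windows of 250 bases, 17.8% held the half-site, 6.75% the AP-1 motif and 12.4% the TATA box. The full cAMP response element (1.55% of windows), the EGR motif (4.7%), the E-box (6.02%) and the CArG box (1.47%) were not in the 12 windows. These matches describe letters and say nothing of binding.

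Levels between genes were compared per length, in the authors' FPKM, as means over all 25 mice. Arc stood highest at 307 FPKM, followed by Ntrk3 at 165 FPKM, Ntrk2 at 152 FPKM, Vgf at 47.8 FPKM and Homer1 at 45.2 FPKM. Inhba, at 7.70 FPKM, Nptx2, at 6.42 FPKM, Ptgs2, at 2.40 FPKM, and Bdnf, at 1.84 FPKM, were the lower ones. The order rests on the gene lengths that the deposited values imply, which run from 1177 bases for Arc, whose gene spans 3488 bases, to 11074 bases for Bdnf. Below, the level of a gene is given in CPM, counts scaled to a common normalised library size. In CPM, Ntrk2 (783 to 986) stood above Ntrk3 (249 to 320). Their FPKM order thus rests on implied lengths of 5962 bases for Ntrk2 and 1706 bases for Ntrk3. Over the 25 mice Arc varied most, with a coefficient of variation of 52.0%, before Inhba at 30.8%, and the receptor genes least, with 7.10% for Ntrk3 and 4.72% for Ntrk2. These values include the differences between groups. Arc also varied most inside the model control, vestitol and wild type groups. With salviolone it was at 18.1%, below Ptgs2 at 33.3%, and in the combination at 15.7%, below Inhba at 22.7%. The lowest count of a member in any library was 502 (Ptgs2), well above the minimum count of 10 of the low-count filter. Counting error was not measured apart from the differences between mice. The plot of the 9 genes by mouse shows these levels.

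**Figure D1:**
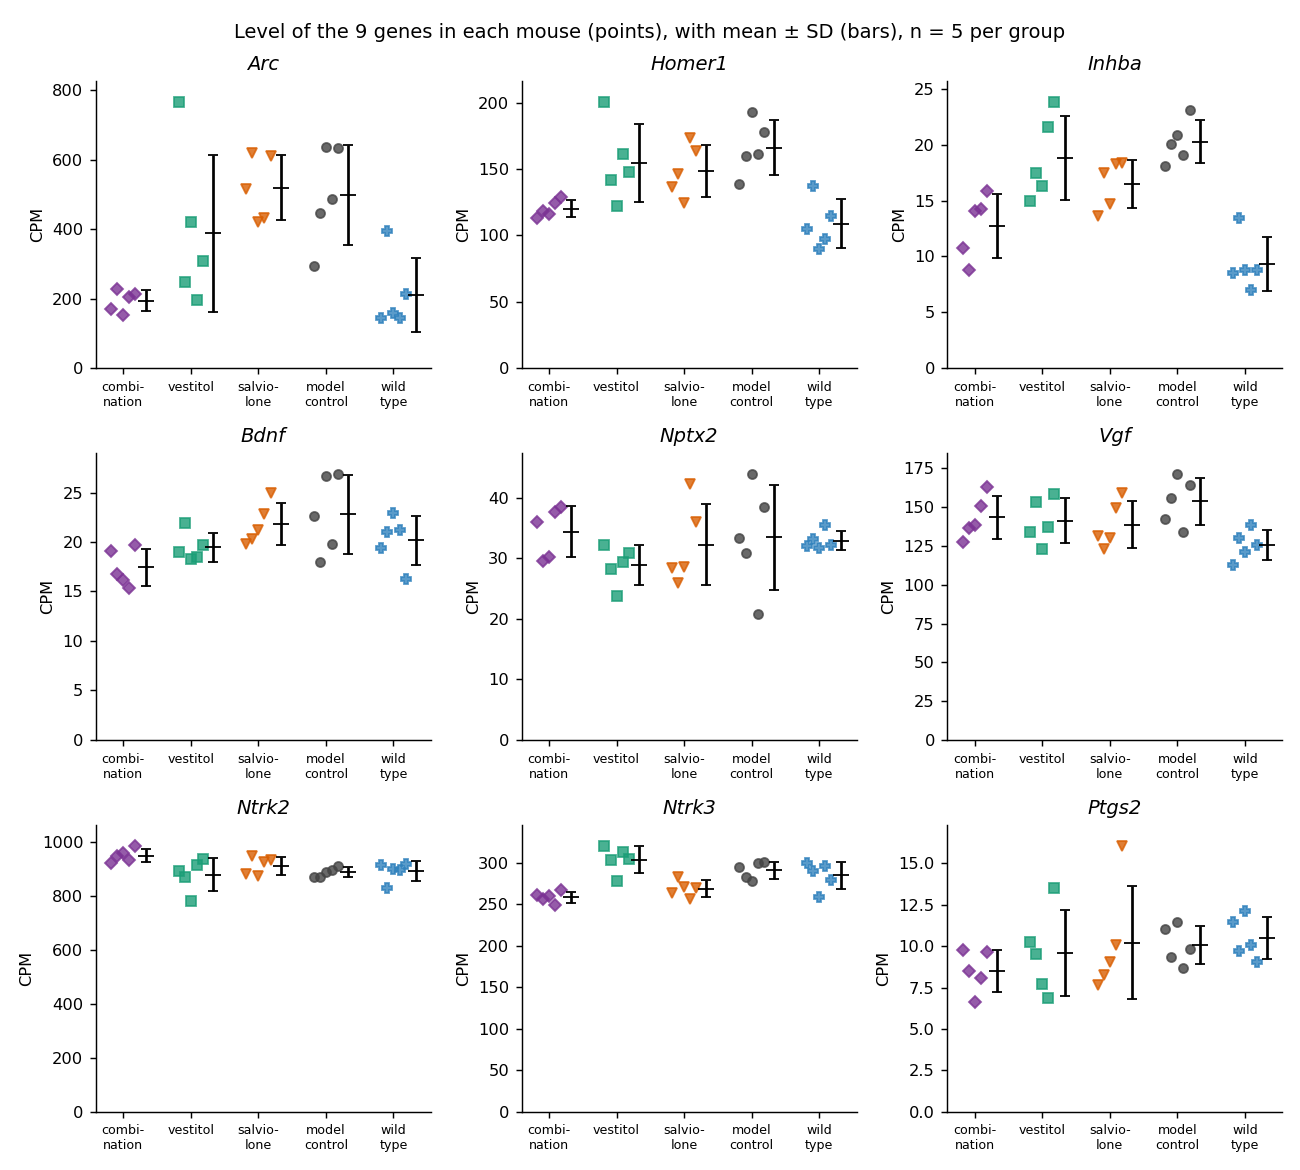
Level of each of the 9 genes in CPM (vertical axis, from 0) in each mouse (points), by group (horizontal axis), with the mean and SD of the group as a bar beside the points (n = 5 mice per group). Arc, Homer1 and Inhba were low in the combination and wild type groups, while Ntrk2 and Ntrk3 moved within narrow ranges in all 5 groups.

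The libraries held 59376320 to 109776852 counts, and the 3 deepest were combination mice. App and Prnp, the genes that the APP transgene and its promoter come from, checked the labels: App averaged 4262 ± 354 CPM in model control mice and 1672 ± 165 CPM in wild type mice (SD, n = 5), and Prnp averaged 1856 ± 146 CPM in model control mice and 652 ± 40.4 CPM in wild type mice. Each of the 20 transgenic mice had at least 3439 CPM of App, whereas wild type mice reached 1800.2 CPM at most. Markers of cortical excitatory neurons summed to between 3383 and 5373 CPM in each mouse. Markers of tissue next to the cortex also differed between groups. The 13 hypothalamus markers, some of which cortex neurons also express, summed to 409 to 681 CPM in the combination, 79.8 to 134 CPM with vestitol, 82.5 to 98.6 CPM with salviolone, 81.6 to 265 CPM in the model control and 107 to 613 CPM in wild type. Hippocampus markers ran from 206 to 273 CPM in the combination, 108 to 139 CPM with vestitol, 107 to 124 CPM with salviolone, 104 to 165 CPM in the model control and 121 to 264 CPM in wild type. No list except the pituitary's had a marker at 0 throughout a group. Pituitary markers summed to 5976 CPM in wild type mouse 3, and to at most 3.69 CPM in each of the other mice. Without that mouse Arc, Homer1 and Inhba stayed called in the model control against wild type, with Arc at an adjusted p of 0.0484 by edgeR, and Vgf did not (adjusted p = 0.054).

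The first comparison asks how the model differs from wild type. Arc, Homer1, Inhba and Vgf rose in the model control, by 1.22-fold (Vgf) to 2.37-fold (Arc), and the other 5 genes did not pass the test. These 4 of 9 stand against 11.6% of all tested genes called in either direction, and 5.37% called higher. A call means an adjusted p under 0.05 by the quasi-likelihood F test of edgeR, where the Benjamini-Hochberg adjustment ran over the 16515 genes. Log2 fold changes are given with their standard error (SE).

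Arc (chromosome 15, 74540932 to 74544419, mm39), the postsynaptic regulator of AMPA receptors, was at 294, 446, 637, 486 and 634 CPM in the 5 model control mice and at 144, 394, 158, 145 and 213 CPM in the wild type mice. The means were 499 ± 144 CPM in model control mice against 211 ± 106 CPM in wild type mice, a log2 fold change of 1.24 ± 0.33 (adjusted p = 0.0184, edgeR), and the ranges overlapped because 1 wild type mouse lay above the lowest model mouse. Without wild type mouse 1 or 4 the call was lost, at an adjusted p of 0.0541 and 0.0648, and at 0.0788 when only these groups were fitted. Homer1 (chromosome 13, 93440265 to 93541637), the scaffold of metabotropic glutamate receptors, was at 139, 160.1, 193, 162 and 178 CPM in the model control and at 105, 138, 89.9, 97.3 and 115 CPM in wild type. Every model mouse lay above every wild type mouse, and the log2 fold change was 0.61 ± 0.12 (adjusted p = 0.00265, edgeR).

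Inhba (chromosome 13, 16186436 to 16206206) encodes the subunit whose dimer is activin A, a secreted factor of the TGF-beta family that neurons make after activity. It was at 18.1, 20.1, 20.9, 19.1 and 23.1 CPM in the model control and at 8.49, 13.4, 8.79, 7.03 and 8.82 CPM in wild type. The groups did not overlap, and the log2 fold change was 1.12 ± 0.16 (adjusted p = 0.000298, edgeR). Homer1 and Inhba were thus 2 of 9 members with every model mouse above every wild type mouse, beside 2.43% of all tested genes. Vgf (chromosome 5, 137055246 to 137062205), a neuronal secretory protein cleaved into peptides, was at 142, 156, 171, 134 and 164 CPM in the model control and at 113, 130.4, 121, 138 and 126 CPM in wild type. The ranges overlapped by 1 mouse of the model control, and the log2 fold change was 0.29 ± 0.08 (adjusted p = 0.0245, edgeR). Its call was lost without any 1 of model control mice 2, 3 and 5 or wild type mice 1 and 3, with adjusted p of 0.0538 to 0.073, and when only these groups were fitted (0.0633).

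Of the genes not called, Bdnf (chromosome 2, 109505045 to 109557352), the ligand of TrkB, averaged 22.8 ± 4.01 CPM in model control mice and 20.2 ± 2.51 CPM in wild type mice, and the 95% interval of the log2 fold change ran from -0.05 to 0.40. Ntrk2 (chromosome 13, 58954383 to 59281784), which encodes TrkB, was at 887 ± 18.3 CPM in model control mice against 892 ± 36.6 CPM in wild type mice, with an interval of -0.09 to 0.08. Ntrk3 (chromosome 7, 77825707 to 78307472), which encodes TrkC, the receptor of neurotrophin-3, was at 291 ± 10.3 CPM in model control mice against 285 ± 16.5 CPM in wild type mice (interval -0.06 to 0.12). For both receptors the data thus bound the difference closely. Nptx2 (chromosome 5, 144482712 to 144494288), a secreted pentraxin that clusters AMPA receptors, averaged 33.5 ± 8.65 CPM in model control mice and 32.9 ± 1.54 CPM in wild type mice, with an interval of -0.28 to 0.33. Ptgs2 (chromosome 1, 149975782 to 149983978), the inducible cyclooxygenase that starts prostaglandin synthesis, was at 10.1 ± 1.16 CPM in model control mice against 10.5 ± 1.28 CPM in wild type mice (interval -0.43 to 0.31). Inhba, Bdnf, Ntrk2 and Ntrk3 each overlap an antisense gene in the GENCODE vM21 annotation, and without a stated strand setting reads of both strands cannot be told apart.

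**Figure D2:**
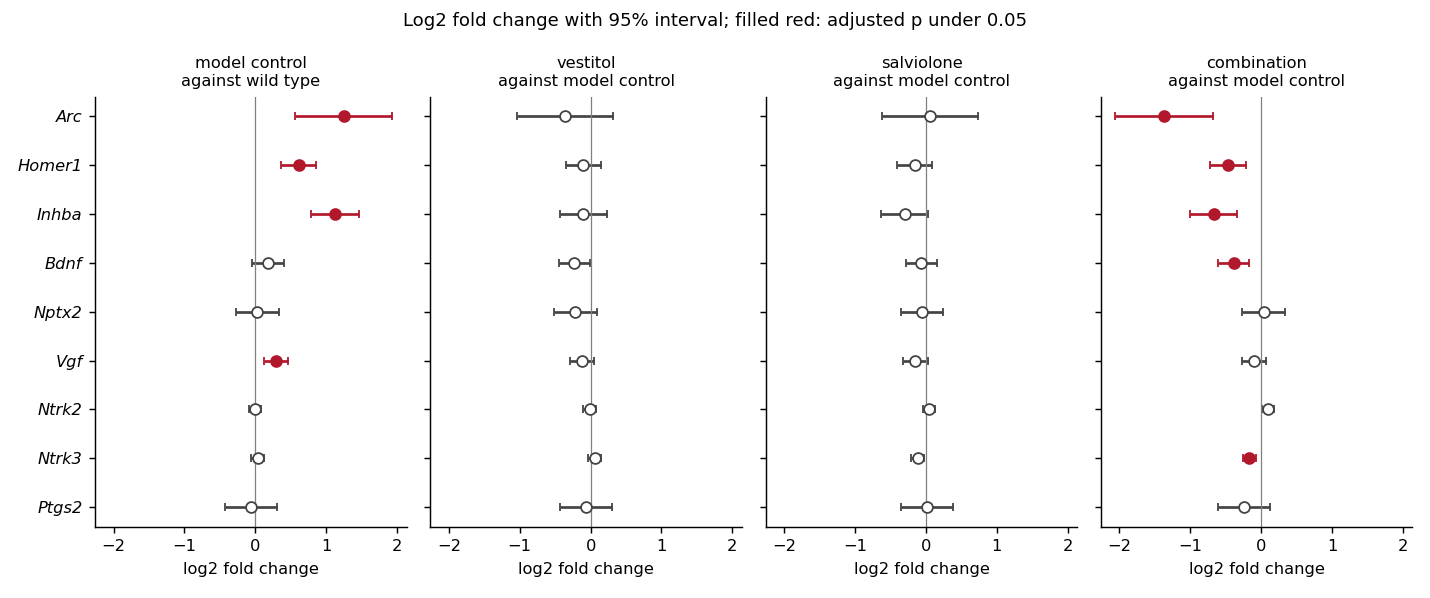
Log2 fold change (horizontal axis) of each of the 9 genes (vertical axis) with its 95% interval in 4 comparisons of 5 mice against 5, where filled red points have an adjusted p under 0.05. Arc, Homer1 and Inhba lie right of 0 in the model control against wild type and left of 0 in the combination against the model control, and no gene is filled in the panels of the single compounds.

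The tissue markers moved with this comparison. Of the 13 hypothalamus markers, 6 were called lower in the model control, with a median log2 fold change of -1.49 against -0.01 over all genes, and 4 of the 10 cortical excitatory neuron markers were called higher. Of the 8 microglia markers 3 were called higher, and their sums did not overlap, at 341 to 416 CPM in the model control and 262 to 316 CPM in wild type. Of the 8 inhibitory neuron markers 4 were called higher and 1 lower, while 2 of 8 hippocampus, 2 of 6 meninges and 1 of 6 endothelium markers were called lower. The part of these other lists in the members' calls was not tested. Wild type mouse 2, with 394 CPM of Arc and 13.4 CPM of Inhba, the highest of its group, also had the lowest hypothalamus sum of the group, at 107 CPM against 393 to 613 CPM in the other wild type mice. Model control mouse 1, with the lowest Arc of its group, had the highest hypothalamus sum, at 265 CPM. Vestitol mouse 4 likewise had the lowest Arc (197 CPM) and the highest sum (134 CPM) of its group. In the combination, by contrast, mouse 3 had both the lowest Arc (154 CPM) and the lowest sum (409 CPM). By the mean log2 CPM of the 13 markers, though, the highest vestitol mouse was mouse 2 (-0.33), not mouse 4 (-0.39). The lowest combination mouse was then mouse 1 (1.15). With salviolone, mouse 2 had the highest Arc (619 CPM) and the lowest sum (82.5 CPM). Salviolone mouse 3 had both the lowest Arc (420.2 CPM) and the lowest mean log2 CPM of the markers (-0.63). The relation within groups was not tested. With a hypothalamus score (the mean log2 CPM of the 13 markers) as a covariate, Inhba stayed called at a log2 fold change of 0.98 (adjusted p = 0.018), but not with 4 tissue scores as covariates (0.98, adjusted p = 0.0866). Under that covariate, Arc was at 0.77 (adjusted p = 0.311), Homer1 at 0.43 (adjusted p = 0.118) and Vgf at 0.31 (adjusted p = 0.145), all with the sign kept. The plot against the hypothalamus markers shows each mouse.

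**Figure D3:**
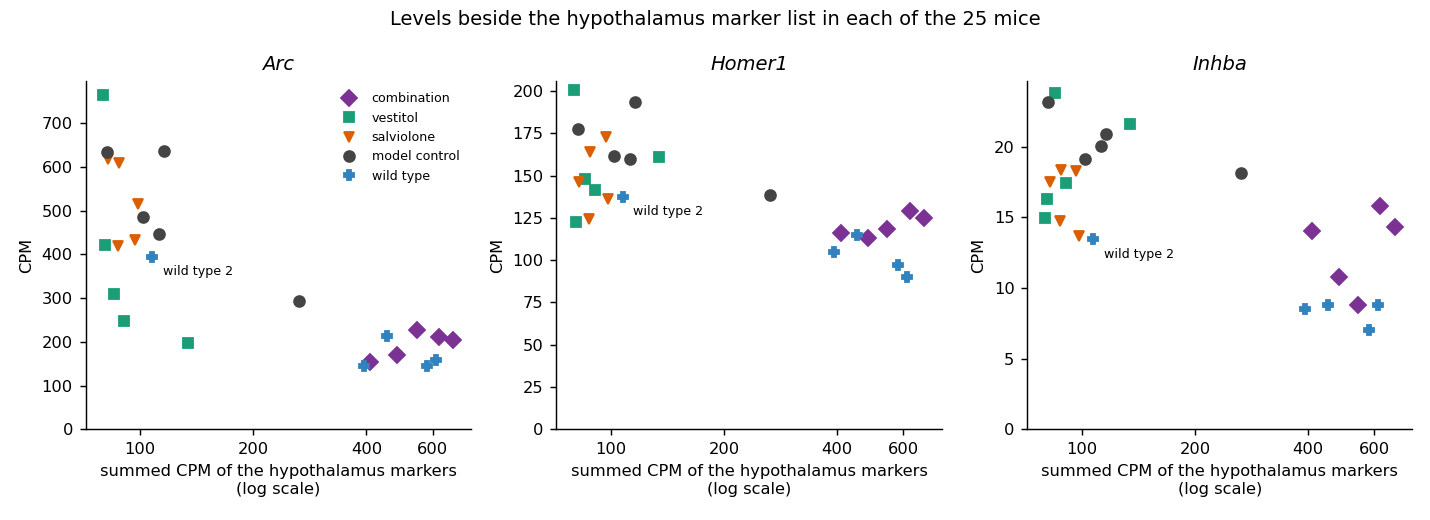
Level of Arc, Homer1 and Inhba in CPM (vertical axes, from 0) against the summed CPM of the 13 hypothalamus markers (horizontal axis, log scale) in each of the 25 mice, coloured by group. The 5 combination mice and 4 of the wild type mice lie at sums of 393 CPM or more, and wild type mouse 2 lies at 107 CPM among the mice of the other 3 groups.

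Among the genes around the members, lists of pathway partners were counted in the same fit. Of 18 transcription factor genes switched on by activity, 5 rose and 1 fell in the model control, with a median log2 fold change of 0.48. Those that rose first by adjusted p were Egr3 (0.64 ± 0.14), Ier2 (0.94 ± 0.24), Egr1 (0.70 ± 0.18) and Nr4a1 (0.76 ± 0.21), and Jun, a partner of Fos in AP-1, fell (-0.46 ± 0.14). Of 26 other activity-induced effectors, 4 rose and 1 fell (median 0.14): Rgs4, which dampens G protein signals, by 0.56 ± 0.13, Dusp6, a phosphatase of ERK, by 0.45 ± 0.12, Rheb, an activator of mTOR, by 0.32 ± 0.09 and Trib1 by 0.65 ± 0.21, while Nptxr, the membrane-bound partner of Nptx2, fell (-0.81 ± 0.16).

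Around the ligands and receptors, changes went both ways. Of 25 neurotrophin pathway genes, Frs2, a docking protein of Trk receptors, rose (0.15 ± 0.04), while Mapk3, which encodes ERK1, and the adaptor Shc2 fell (-0.62 ± 0.11 and -0.17 ± 0.06). Of 15 activin pathway genes, the type I receptor gene Acvr1c rose (0.57 ± 0.11), while the type II receptor genes Acvr2a and Acvr2b, which bind activin A, fell (-0.84 ± 0.16 and -0.38 ± 0.11). The medians were 0.01 and -0.21. Of 15 prostaglandin genes and of 14 Homer and pentraxin partners none was called by edgeR, with 1 and 5 at an unadjusted p under 0.05, 0 and 1 called by DESeq2, and 0 and 2 by limma-voom. All these lists stand against the same 11.6% of genes called, and the hypothalamus markers moved in the same comparison.

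The single compounds were set against the model control to ask what each does alone. With vestitol, no member was called by edgeR, DESeq2 or limma-voom, and 1, Bdnf, had an unadjusted p under 0.05. Of all genes, 0% were called by edgeR, while DESeq2 called 44. Arc was at 766, 247, 422, 197 and 309.7 CPM with vestitol, the widest spread of any group, and 499 ± 144 CPM in the model control. Mouse 1 held the highest Arc of all 25 mice and the other 4 lay below the model mean, so the interval of the log2 fold change ran from -1.04 to 0.32. For Homer1 the interval was -0.35 to 0.14, for Inhba -0.44 to 0.23 and for Bdnf -0.45 to -0.01 (adjusted p = 0.637).

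With salviolone, again no member was called by edgeR, DESeq2 or limma-voom, and 1, Ntrk3, had an unadjusted p under 0.05, beside 0.0242% of all genes called (4, but 0 to 30 without 1 mouse and 109 in DESeq2). Arc was at 516, 619, 420.2, 433 and 610.1 CPM with salviolone, inside the range of the model control, with an interval of -0.62 to 0.74. Inhba was at 13.6, 17.5, 14.7, 18.2 and 18.3 CPM with salviolone and below the model mean of 20.3 CPM in 5 of 5 mice, but the ranges overlapped (log2 fold change -0.30 ± 0.16, adjusted p = 0.492). Ntrk3 was at 269 ± 10.1 CPM with salviolone and 291 ± 10.3 CPM in the model control (log2 fold change -0.12 ± 0.04, adjusted p = 0.304, edgeR). None of the pathway lists held a called gene for either compound. At an unadjusted p under 0.05, they held 0 to 2 genes each with vestitol and 1 to 5 with salviolone, and DESeq2 and limma-voom called none of them.

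The combination against the model control asks what both compounds did together. Arc, Homer1, Inhba, Bdnf and Ntrk3 fell, 5 of 9 members, against 15% of all tested genes called and 7.13% called lower. Arc fell most, to 0.39 of the model control. Ntrk2, Nptx2, Vgf and Ptgs2 did not pass the edgeR test.

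Arc was at 169.7, 227, 154, 205 and 212 CPM in the combination mice and at 294, 446, 637, 486 and 634 CPM in the model control, means of 194 ± 30.4 CPM in the combination and 499 ± 144 CPM in the model control. The groups did not overlap, and the log2 fold change was -1.37 ± 0.33 (adjusted p = 0.00812, edgeR). Homer1 was at 113, 119, 116, 125 and 129 CPM in the combination and 166 ± 20.6 CPM in the model control, again with no overlap (log2 fold change -0.47 ± 0.12, adjusted p = 0.0102, edgeR). Inhba was at 10.8, 8.76, 14.0, 14.3 and 15.8 CPM in the combination and 20.3 ± 1.92 CPM in the model control, also without overlap (log2 fold change -0.67 ± 0.16, adjusted p = 0.00643, edgeR).

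Bdnf was at 19.1, 16.8, 16.2, 15.3 and 19.7 CPM in the combination mice and at 22.7, 17.9, 26.7, 19.8 and 26.9 CPM in the model control. The ranges overlapped, all 5 combination mice lay below the model mean, and the log2 fold change was -0.39 ± 0.11 (adjusted p = 0.0158, edgeR). Without model control mouse 5 that call was lost (adjusted p = 0.0578). Ntrk3 was at 261, 256, 261, 249 and 267 CPM in the combination and at 295, 283, 278, 299.7 and 301 CPM in the model control. The groups did not overlap, although the change was small, at -0.17 ± 0.04 (adjusted p = 0.01, edgeR).

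Every combination mouse thus lay below every model mouse for 4 of 9 members, Arc, Homer1, Inhba and Ntrk3, beside 5.59% of all tested genes. Ntrk2 went the other way, at 921, 948, 960.4, 932 and 986 CPM in the combination and 887 ± 18.3 CPM in the model control, with every combination mouse higher. Its log2 fold change of 0.10 ± 0.04 missed the threshold in edgeR (adjusted p = 0.134) but passed on log2(FPKM + 0.1) and log2(FPKM + 1), at an adjusted p of 0.0495 each, and 7.05% of all genes had every combination mouse above the model. Vgf, at 143 ± 13.9 CPM in the combination and 154 ± 15.3 CPM in the model control, had an interval of -0.27 to 0.07. For Nptx2 the interval was -0.26 to 0.34 and for Ptgs2 -0.61 to 0.13.

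The hypothalamus sums did not overlap between these groups, at 409 to 681 CPM in the combination and 81.6 to 265 CPM in the model control. Of the 13 markers 9 were called higher in the combination (median log2 fold change 2.92), with 6 of 8 striatum markers higher and 5 of 10 cortical excitatory neuron markers lower. Inhibitory neuron markers went both ways, with 3 of 8 called higher and 4 lower. Also called were 2 of 8 hippocampus markers, higher, and 2 of 8 choroid plexus, 1 of 8 astrocyte and 1 of 6 thalamus markers, lower. The part of the neuron, hippocampus and astrocyte markers in the members' calls was not tested. With the hypothalamus score as a covariate, edgeR called none of the 9 members, none of them had an unadjusted p under 0.05, and it called 0 of the 16515 genes (1377 at an unadjusted p under 0.05). Arc was then at -0.43 (adjusted p = 0.849), Homer1 at -0.14 (adjusted p = 0.869), Inhba at -0.39 (adjusted p = 0.698), Bdnf at -0.31 (adjusted p = 0.645) and Ntrk3 at -0.10 (adjusted p = 0.702). Since the groups did not overlap in the score, treatment and tissue cannot be told apart here. Without the 3 deepest combination libraries 1 member stayed called, Inhba (-1.05, adjusted p = 0.00739), while Arc was at -1.33 (adjusted p = 0.125), Homer1 at -0.52 (adjusted p = 0.079), Bdnf at -0.35 (adjusted p = 0.165) and Ntrk3 at -0.17 (adjusted p = 0.104).

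The pathway lists were counted in the same comparison, beside the 15% of all genes called. Of the 18 transcription factor genes 7 fell and none rose with the combination (median -0.62). Egr3 fell (-0.74 ± 0.15), as did Crem (-0.65 ± 0.13), Ier2 (-1.15 ± 0.24) and Npas4 (-0.82 ± 0.19), a factor specific to neurons that calcium switches on. Of the 26 other effectors 8 fell and 2 rose (median -0.20). Dusp6 (-0.68 ± 0.12), Trib1 (-1.15 ± 0.21), Nptx1 (-0.40 ± 0.08), a pentraxin related to Nptx2, and Dusp1 (-0.78 ± 0.17) were the first of those that fell. The neuropeptide gene Penk (0.98 ± 0.19), abundant in striatum, and the secretogranin gene Scg2 (0.68 ± 0.17) rose.

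Of the 25 neurotrophin pathway genes 4 rose and 2 fell. Ngfr, the p75 receptor that binds all neurotrophins, was at 14.8 ± 3.10 CPM in the combination and 3.62 ± 1.71 CPM in the model control (log2 fold change 2.04 ± 0.42). In the brain it is best known from cholinergic neurons of the basal forebrain. Mapk3 (0.58 ± 0.11) and Hras (0.18 ± 0.06) also rose, while the sorting receptor Sort1 (-0.21 ± 0.05) fell. Of the 15 activin genes Inha, Acvr2b and Acvr2a rose (0.29 ± 0.07, 0.34 ± 0.11 and 0.49 ± 0.16) and Acvr1c fell (-0.41 ± 0.11). Of the 14 Homer and pentraxin partners 5 fell, led by the scaffold genes Dlgap1 (-0.36 ± 0.07) and Shank1 (-0.34 ± 0.07), and of the 15 prostaglandin genes 1 was called, a smaller share than over all genes: Cbr1, a carbonyl reductase that acts on prostaglandin E2, which rose (0.27 ± 0.07). As with the members, edgeR called 0 of these genes once the hypothalamus score was a covariate, as it called none in the whole table.

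Against the single compounds, the combination showed the same order of levels for several members. Against vestitol, Arc (-1.004 ± 0.33, adjusted p = 0.0336), Homer1 (-0.36 ± 0.12, adjusted p = 0.0324), Inhba (-0.56 ± 0.16, adjusted p = 0.014) and Ntrk3 (-0.23 ± 0.04, adjusted p = 0.000506) fell by edgeR, 4 of 9 beside 21.9% of all genes called and 10.6% called lower. Ntrk3 was at 259 ± 6.70 CPM in the combination and 320.5, 304, 278, 313 and 304 CPM with vestitol. It was the 1 member with every combination mouse below every vestitol mouse, beside 8.68% of all genes. The Arc call against vestitol leaned on vestitol mouse 1, at 766 CPM: without it the log2 fold change was -0.60 (adjusted p = 0.159), and it was also lost without vestitol mouse 3 or combination mouse 1, 3, 4 or 5 and in limma-voom (adjusted p = 0.0615). The Homer1 call was lost without vestitol mouse 1 or 4 or combination mouse 1, 2 or 3 (adjusted p of 0.056 to 0.121), and that of Inhba without vestitol mouse 5 (adjusted p = 0.0521). Ntrk2, higher by 0.11 in the combination, missed the threshold in edgeR (adjusted p = 0.0676) and in DESeq2, but was called by limma-voom (adjusted p = 0.0227), on the 3 FPKM scales (adjusted p of 0.0189 to 0.022) and without vestitol mouse 5 (adjusted p = 0.0309).

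Against salviolone, Arc (-1.42 ± 0.33, adjusted p = 0.00436) and Bdnf (-0.32 ± 0.11, adjusted p = 0.0374) fell with the combination by edgeR, 2 of 9 beside 17.9% of all genes called and 8.23% called lower. Both were separated mouse by mouse in CPM, beside 7.27% of all genes. In FPKM the Bdnf ranges overlapped, with combination mouse 5 (1.799 FPKM) above salviolone mouse 1 (1.793 FPKM). In CPM, Bdnf was at 15.3 to 19.7 CPM in the combination and at 19.8, 20.3, 21.2, 22.9 and 24.9 CPM with salviolone. Its call was lost without any 1 of salviolone mice 3, 4 and 5 or combination mice 2, 3 and 4, with adjusted p of 0.053 to 0.109, and on the FPKM scale. Homer1, at 120.3 ± 6.49 CPM in the combination and 149 ± 19.8 CPM with salviolone, missed the threshold (adjusted p = 0.0805), but DESeq2 and limma-voom called it. With the hypothalamus score as a covariate edgeR called 0 of 9 members against either compound. At an unadjusted p under 0.05 there was 1 member against vestitol (1827 of all genes) and 0 against salviolone (1676 of all genes). Arc was then at 0.013 against vestitol (adjusted p = 0.995, edgeR). That score did not overlap between the combination and either compound. Of the 10 cortical excitatory neuron markers, 8 were called lower in the combination against each compound, with a median log2 fold change of -0.55 against vestitol and -0.60 against salviolone, and their sums did not overlap, at 3383 to 4253 CPM in the combination, 4339 to 5215 CPM with vestitol and 4415 to 4944 CPM with salviolone. Of the 8 striatum markers, 4 were called higher against vestitol and 7 against salviolone. Inhibitory neuron markers again went both ways, with 4 called higher and 4 lower against each compound. The part of the neuron markers in these calls was not tested.

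Vestitol against salviolone, at the same dose, gave no called member by edgeR, beside 0.684% of all genes (113, but 14 to 204 without 1 mouse and 270 in DESeq2), and 1 at an unadjusted p under 0.05, Ntrk3. Ntrk3 was at 320.5, 304, 278, 313 and 304 CPM with vestitol and at 263, 283, 271, 256 and 269.6 CPM with salviolone. A single salviolone mouse lay above the lowest vestitol mouse, and the log2 fold change was 0.18 ± 0.04 (adjusted p = 0.061, edgeR). DESeq2 and limma-voom each called it, at an adjusted p of 0.0171 and 0.0362. Ntrk3 was called in 5 of 13 alternative settings, with adjusted p of 0.0171 to 0.443 over them. The striatum sums did not overlap, at 1017 to 1746 CPM with vestitol and 749 to 943 CPM with salviolone. Of the 8 striatum markers 1 was called higher with vestitol (median log2 fold change 0.53). The part of these markers in the Ntrk3 difference was not tested by itself. For Arc the interval was -1.10 to 0.26, for Homer1 -0.19 to 0.30 and for Inhba -0.14 to 0.52, which leaves differences in either direction possible.

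The treated transgenic mice were also set against wild type, with the wild type mice shared by these comparisons and by that of the model control. With vestitol, Homer1 (0.51 ± 0.12, adjusted p = 0.00552) and Inhba (1.02 ± 0.16, adjusted p = 0.000279) were higher than in wild type by edgeR, 2 of 9 beside 15.4% of all genes called and 6.95% called higher. Inhba was at 15.0 to 23.8 CPM with vestitol and 7.03 to 13.4 CPM in wild type, the 1 member without overlap (3.4% of all genes). Arc had a log2 fold change of 0.88 ± 0.33 (adjusted p = 0.076), and was called without vestitol mouse 4 (adjusted p = 0.0371) or wild type mouse 2 (adjusted p = 0.00724). With salviolone, Arc (1.30 ± 0.33, adjusted p = 0.00921), Homer1 (0.45 ± 0.12, adjusted p = 0.011) and Inhba (0.82 ± 0.16, adjusted p = 0.00107) were higher than in wild type, 3 of 9 beside 17.8% called and 8.32% called higher, and Arc and Inhba did not overlap (4.11% of all genes). The hypothalamus sums of both compound groups lay below those of 4 of the 5 wild type mice, and with that score as a covariate Inhba stayed called, at 0.86 with vestitol (adjusted p = 0.0343) and 0.69 with salviolone (adjusted p = 0.0352), while the other calls were lost. Cortical excitatory neuron markers were called higher (4 of 10 with vestitol, 6 of 10 with salviolone), as were those of microglia (4 of 8 with each) and oligodendrocytes (3 of 8 with vestitol, 4 of 8 with salviolone). Called lower were 3 of 8 hippocampus markers with each compound, 5 of 6 meninges markers with vestitol and 1 with salviolone, and 3 of 8 striatum markers with salviolone. Inhibitory neuron markers went both ways (3 of 8 higher and 1 lower with vestitol, 4 higher and 2 lower with salviolone). The part of each of these lists in the members' calls was not tested by itself. With 4 tissue scores as covariates, which were added after the data were seen, Inhba was at 0.82 with vestitol (adjusted p = 0.055) and 0.74 with salviolone (adjusted p = 0.082).

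With the combination no member was called against wild type by edgeR, beside 2.23% of all genes (368, but 123 to 608 without 1 mouse and 726 in DESeq2). At an unadjusted p under 0.05 by edgeR there were 4 members. Of these Ntrk2 had the largest p (0.0442), and 2553 of the tested genes had a smaller adjusted p than Ntrk2. DESeq2 called 0 members and limma-voom 2, Inhba and Ntrk3. Arc was at 194 ± 30.4 CPM in the combination and 211 ± 106 CPM in wild type (95% interval of the log2 fold change -0.80 to 0.56), and Homer1 at 120.3 ± 6.49 CPM in the combination and 109 ± 18.5 CPM in wild type (-0.10 to 0.39). Inhba, at 12.7 ± 2.88 CPM in the combination and 9.31 ± 2.42 CPM in wild type, had an interval of 0.12 to 0.79 (adjusted p = 0.146) and was called without wild type mouse 2 (adjusted p = 0.0287). Without wild type mouse 3, the one with pituitary markers, Ntrk3 was called lower with the combination (-0.17, adjusted p = 0.023). In CPM, Ntrk2 was the 1 member with every combination mouse above every wild type mouse, beside 2.13% of all genes. Its means were 949 ± 25.1 CPM in the combination and 892 ± 36.6 CPM in wild type (log2 fold change 0.09 ± 0.04, adjusted p = 0.286, edgeR). In FPKM the Ntrk2 ranges overlapped, with a combination minimum of 156.5 FPKM and a wild type maximum of 157.1 FPKM. The hypothalamus sums of the combination and wild type mice overlapped, but the striatum sums did not, at 1451 to 1990 CPM in the combination and 832 to 1310 CPM in wild type, with 5 of 8 striatum markers called higher. Of the 8 microglia markers 3 were called higher and 1 lower, and of the 8 inhibitory neuron markers 3 higher and 1 lower. With 4 tissue scores as covariates, striatum among them, edgeR called 12 of all genes, and the part of the microglia and inhibitory neuron markers was not tested.

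The 5 groups were ordered by mean level for each gene. Arc was highest with salviolone (519.6 CPM), then in the model control, with vestitol, in wild type and lowest with the combination (194 CPM). Homer1 and Inhba shared another order, with the model control first, then vestitol, salviolone, the combination and wild type. In every one of the 9 orders, groups next to each other had overlapping ranges and were not called apart by edgeR, with the lowest adjusted p at 0.076 for Arc with vestitol against wild type. Other tools called 2 of these neighbours apart: Homer1 in the combination against salviolone by DESeq2 (adjusted p = 0.0452) and limma-voom (adjusted p = 0.0423), and Inhba in the combination against wild type by limma-voom (adjusted p = 0.0396). Bdnf and Ptgs2 were lowest with the combination, at 17.4 ± 1.91 CPM and 8.52 ± 1.26 CPM, whereas Ntrk2 and Nptx2 were highest there, at 949 ± 25.1 CPM and 34.4 ± 4.19 CPM.

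How the members varied from mouse to mouse inside a group was measured by correlating log2 CPM less the group mean over the 25 mice, for all 36 pairs. A total of 2 pairs passed after adjustment over the 36, both positive. Nptx2 and Vgf, both secreted by neurons, had a Pearson r of 0.71 (permutation p = 0.00031, adjusted p = 0.00864) and a Spearman rho of 0.73 (adjusted p = 0.0104). Without the 2 mice farthest from the median of the gene named first in a pair, here Nptx2, r was 0.66. Bdnf and Ptgs2 had an r of 0.58 (permutation p = 0.00048, adjusted p = 0.00864) and a rho of 0.71 (adjusted p = 0.0036). Without the 2 mice farthest out in Bdnf r was 0.65, but the mice farthest out in Ptgs2, salviolone mouse 5 and vestitol mouse 5, stayed in. Arc and Homer1 had an r of 0.64 (permutation p = 0.0083, adjusted p = 0.087), which was 0.37 without the 2 farthest mice, and a rho of 0.58 (permutation p = 0.00936, adjusted p = 0.0562), so it passed by neither measure after adjustment. By Spearman 5 pairs passed, and without 1 mouse at a time 1 to 4 pairs passed by Pearson. The plot of deviations within groups shows these 3 pairs.

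**Figure D4:**
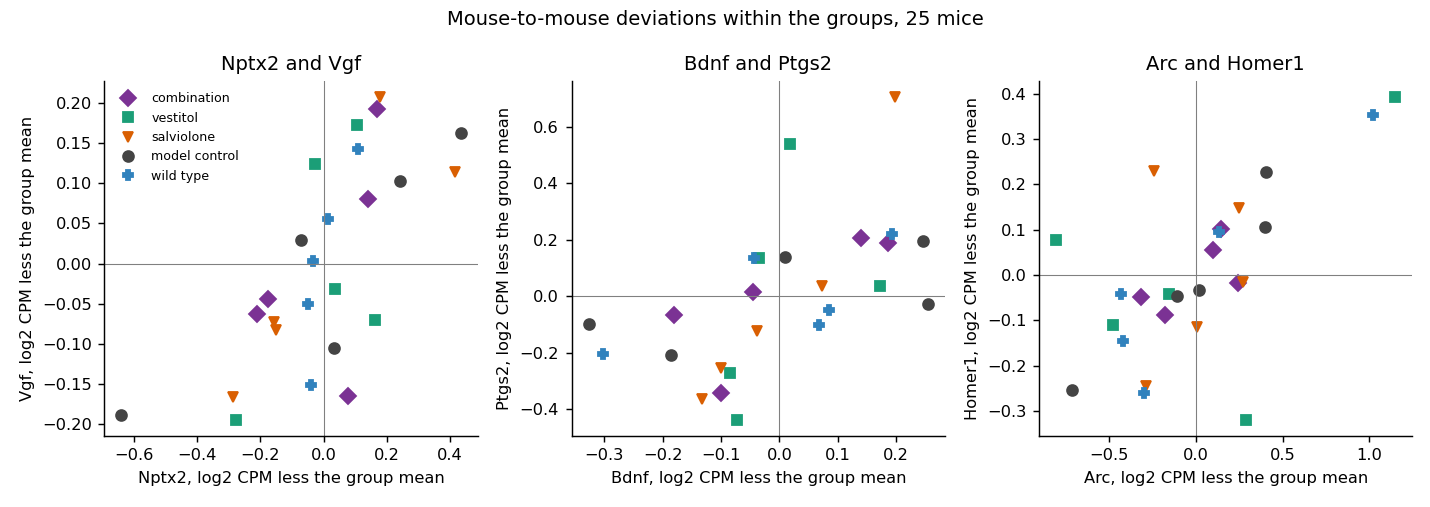
Log2 CPM less the group mean of one gene against another (both axes on the log2 scale) in the 25 mice, coloured by group, for Nptx2 with Vgf, Bdnf with Ptgs2 and Arc with Homer1. The points of the first pair rise together (r = 0.71), and in the third pair 1 vestitol and 1 wild type mouse lie far out at the upper right.

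The genes whose pattern over the 25 mice was most like that of each member were found as the smallest mean absolute difference of log2 CPM scaled to mean 0 and SD 1, among 12732 genes. Arc was followed most closely by Egr1 (a mean difference of 0.17 SD), Nr4a1 (0.20 SD) and Dusp5 (0.24 SD), while the median over all genes was 1.12 SD. Homer1 was nearest to Gfod1, Spry2 and Oprd1 (0.35 to 0.39 SD), and Inhba to Cbln4, Ddit4l and Nefm (0.33 to 0.37 SD). Among the other secreted members, Vgf was nearest to Vwa1, Slc7a10 and Spred3 (0.40 to 0.53 SD), Bdnf to Tmem121b, Syt13 and Shank2 (0.48 to 0.56 SD) and Nptx2 to Ube2q1, Rab43 and Rhot2 (0.52 to 0.58 SD). Ntrk3 was nearest to Supt16, Ranbp2 and Sp3 (0.39 to 0.48 SD), Ntrk2 to Pacsin2, Lman2 and Ubr4 (0.54 to 0.57 SD) and Ptgs2 to Rbm6, Emx2 and Med8 (0.58 to 0.62 SD). These likenesses include the differences between groups, and the mice of a group share them.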

How the data were processed

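Libraries of total RNA from the brain cortex of 25 mice were sequenced, with TruSeq and SMARTER kits both named in the labels. Per the submitters' processing notes, reads were trimmed with Trim Galore and aligned with STAR to mm39; for versions, counting tool, annotation and strand setting the entry is: not given in the sources used here. Deposited by the authors were raw counts per gene and FPKM per gene of all 25 samples. Low counts (4 to 39) were multiples of 4 more often (44.3%) than the 25% that chance gives, so counts divided by 4 served as an alternative.

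The counts of all 25 samples were fitted together in edgeR 4.0.16 under R 4.3.3 (a coefficient for each group, filterByExpr with a minimum count of 10, TMM) and compared by two-sided robust quasi-likelihood F tests, with Benjamini-Hochberg adjustment over 16515 genes in each of 10 comparisons. Intervals are 95%. DESeq2 1.42.0, limma 3.58.1 (voom with sample weights, or log2 of FPKM plus 0.1 or 1) and the settings of the closing section were alternatives. Fits were tested on simulated data. P-values of pairs come from 100000 permutations within groups. No libraries were duplicated (chi-square per degree of freedom at least 36.0 within groups).

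The members, lists, tests and alternatives were chosen with earlier results of these data known. Named were all members, App and Prnp, up to 4 called genes per list and direction, and the 3 genes most like each member. Some items that this rule names are not reported here. A fit with 4 marker scores as covariates (thalamus, striatum, hypothalamus, choroid plexus) and the combination without its 3 deepest libraries were added after seeing the data. Gene positions are the files' own (mm39), and promoter sequences and their positions are from RefSeq (GRCm38.p6). Fold changes on the log2(FPKM + pseudocount) scale understate changes of low genes. The precision of each value rests on the spread between 5 mice.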

Additional observations from a re-analysis of the deposited data

Results flagged for a closer look

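Wild type mouse 2 stood far from the other 4 wild type mice in 3 of the 45 tests of a gene in a group (Dixon's test for 5 samples, by which chance alone marks about 1 in 20). Its Arc level was 394 CPM, against 144 to 213 CPM in the other 4. Its Inhba level was 13.4 CPM, and the next highest was 8.82 CPM. Its Ntrk2 level was 828 CPM, the lowest of the group, with the next at 896 CPM. The hypothalamus score of this mouse was -0.98, against 0.81 to 2.80 in the other wild type mice. The part of tissue in these values was not tested.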

How the results depend on the processing

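RLE size factors, no low-count filter, at least 1 CPM in 5 samples and counts divided by 4 left the count of members called within 1.5 times the reported one in all 10 comparisons. In the model control against wild type, 4 members were called, but 2 when only those groups were fitted, 1 with the hypothalamus score as a covariate, 0 with 4 tissue scores and 2 to 4 without 1 mouse. In the combination against the model control the 5 became 0 with either covariate set, 1 without the 3 deepest combination libraries and 4 to 5 without 1 mouse. Against vestitol the combination's 4 became 0 with either covariate set, 2 without the deepest libraries and 2 to 4 without 1 mouse; against salviolone its 2 became 0 with either covariate set, 1 on each of 3 FPKM scales and 1 to 2 without 1 mouse. Against wild type, vestitol's 2 and salviolone's 3 became 1 with the hypothalamus score and 0 with 4 scores, and the combination's 0 became 2 in limma-voom, with 0 to 1 without 1 mouse. Vestitol against salviolone gave 1 member in place of 0 in DESeq2, limma-voom and on the 3 FPKM scales, and 0 to 1 without 1 mouse. Without the deepest libraries Arc and Bdnf were both lost against salviolone, and the 1 call was another member, Inhba (-0.75, adjusted p = 0.0227). The pairs varying together, 2, numbered 1 to 4 without 1 mouse. The cause of these shifts was not tested, though fits on fewer mice have less power by construction. Over all genes, the model control against wild type called 1913, but 349 with only those groups, 103 with the hypothalamus score, 30 with 4 scores and 954 to 2928 without 1 mouse, and the combination against the model control called 2471, but 0 with either covariate set and 914 without the deepest libraries. The replicate numbers were not treated as pairing the mice. In no comparison did every same-number correlation exceed 0.1, though this rule cannot exclude a weak pairing. With a replicate block the combination against the model control called 5 members and 2455 genes, and Arc against vestitol missed the threshold (-0.99, adjusted p = 0.0519).

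Directions that turned were of uncalled values, apart from Arc in the combination against vestitol. With the hypothalamus score as a covariate, Arc was at 0.34 against wild type and 0.013 against vestitol in the combination, Vgf at -0.013 against vestitol, and Homer1 and Ntrk3 at 0.012 each against salviolone. Under that covariate Ntrk2 was at 0.024, Ntrk3 at -0.0075 and Nptx2 at -0.024 in the model control against wild type, and Ntrk2 at 0.016 in vestitol against wild type. With 4 scores, Ntrk2 was at 0.039, Ntrk3 at -0.0051 and Ptgs2 at 0.073 in the model control against wild type, Ptgs2 at -0.14 in salviolone against the model control and Ntrk2 at 0.014 in vestitol against wild type. With these scores Arc was at 0.047 against wild type, Vgf at -0.0055 against vestitol and Ntrk2 at -0.00014 against salviolone in the combination, and Homer1 at -0.14 in vestitol against salviolone. Nptx2 in the model control against wild type was at -0.033 on log2(FPKM + 0.1), with or without the filter, -0.024 on log2(FPKM + 1) and -0.069 in limma-voom. Ptgs2 in salviolone against the model control was at -0.021 and -0.0083 on those FPKM scales and at -0.0054 with the replicate block. In limma-voom, Nptx2 was at 0.021 in salviolone against the model control, Bdnf at 0.027 in vestitol against wild type and Arc at 0.073 in the combination against wild type. Without the 3 deepest combination libraries, Nptx2 was at -0.031 against the model control and -0.0057 against wild type, and Vgf at -0.096 against vestitol and -0.070 against salviolone.

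Without 1 mouse, values crossing 0 ran as follows. In the model control against wild type, Ntrk2 ran from -0.030 to 0.0048, Ntrk3 from -0.00079 to 0.050 and Nptx2 from -0.090 to 0.16. In vestitol against the model control, Ntrk2 ran from -0.037 to 0.026 and Ptgs2 from -0.23 to 0.027. In salviolone against the model control, Arc ran from -0.087 to 0.16, Bdnf from -0.14 to 0.00019, Nptx2 from -0.19 to 0.059 and Ptgs2 from -0.20 to 0.11. In the combination, Nptx2 ran from -0.092 to 0.15 against the model control, Arc from -0.24 to 0.23 against wild type, and Vgf from -0.033 to 0.067 against vestitol and from -0.0050 to 0.10 against salviolone. Against wild type, Ntrk2 ran from -0.044 to 0.022 with vestitol, and with salviolone Nptx2 from -0.15 to 0.037 and Ptgs2 from -0.26 to 0.049. In vestitol against salviolone, Homer1 ran from -0.052 to 0.13, Vgf from -0.018 to 0.081 and Ptgs2 from -0.25 to 0.13.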
